A study of Mus musculus with 4 samples.

Results

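The vomeronasal receptor genes are those that the deposited Bmal1 peak lists name Vmn1r or Vmn2r followed by a number, and a receptor peak here is a peak whose nearest transcription start site (TSS) in the authors' annotation belongs to one of them. Over 12 lists, 173 such genes (89 Vmn1r and 84 Vmn2r) carried at least 1 peak, among 12723 gene names in all. A narrow peak, of fixed width within a list, was assigned to 78 of them and a broad peak, of variable width, to 160, with 65 genes in both kinds. In peaks this was 110 of 16134 narrow peaks and 559 of 77941 broad peaks, summed over 6 lists of each kind, in which a place called in several lists counts each time. The assignment says only which TSS was closest, since no expression was measured in these samples.

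Chromatin immunoprecipitation sequencing (ChIP-seq) for Bmal1 was done on whole isolated mouse retina at P5 (2 libraries, replicates 2 and 3) and at P3 (2 libraries, replicates 4 and 5), all harvested at the same zeitgeber time. The study's methods mention input controls without their number, and no input list was used. Each age also has a pooled list called on both of its libraries. The labels name Abcam antibody ab3350 while the study's methods text gives another catalogue number, and the labels state no strain, genotype or sex. The methods give the wild-type animals of the study as derived from C57BL/6J, its reporting form names another strain, and the sex of animals taken before weaning was not recorded. The number of animals in a library is not stated in any source used. The retina holds neurons, glia and some vessel cells, so that occupancy in 1 cell type and in many cannot be told apart, and with no expression data the labelled tissue could not be checked against its markers.

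Vomeronasal receptors are G protein-coupled receptors that detect pheromones and other chemical signals in the vomeronasal organ, a sensory epithelium of the nasal septum. Vmn1r genes encode the V1R family, with a single coding exon, and act with the G protein Gnai2 in the apical neurons of that organ, whereas Vmn2r genes encode the V2R family, with a long extracellular domain split over several exons, and act with Gnao1 in the basal neurons. Both signal through the channel Trpc2. In rodents both families expanded into tandem arrays of closely similar genes and pseudogenes rich in LINE repeats, so that the nearest receptor TSS is the label given to long stretches of such DNA. Bmal1 is the core circadian transcription factor that binds E-boxes together with Clock.

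The 2 narrow receptor peaks of the P5 pooled list are shown first because they are all that this list holds. Sequences are from the plus strand of GRCm38.p6 (mm10), with both end positions included, and capitals mark an E-box, here CANNTG on either strand whose middle bases are C or T followed by G or T.
Vmn2r100, P5 pooled, chr17:19539226-19539364: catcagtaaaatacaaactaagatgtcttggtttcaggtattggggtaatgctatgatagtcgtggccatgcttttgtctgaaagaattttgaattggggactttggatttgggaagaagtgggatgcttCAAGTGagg
Vmn2r1, P5 pooled, chr3:64072747-64072885: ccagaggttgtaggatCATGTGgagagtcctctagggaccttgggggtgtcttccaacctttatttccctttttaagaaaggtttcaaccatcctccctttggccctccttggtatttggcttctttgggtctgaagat
The peak of Vmn2r100 lay 34.5 kb past the TSS in an ORR1A2-int LTR repeat and had a score of 2.23, that of Vmn2r1 lay 8.83 kb before the TSS in an Lx5 LINE and had a score of 2.15. Both were intergenic and each held 1 E-box (CAAGTG and CATGTG). The score is the authors' peak score, and within each narrow list every score was a whole multiple of 1 step, within 0.0052. If 1 step were 1 read (tag) per 10 M, the steps would give 61.98 and 68.3 M tags for P5 replicates 2 and 3 and 55.2 and 65.7 M tags for P3 replicates 4 and 5, and 130.2 and 120.9 M tags for the P5 and P3 pooled lists. These depths are above the one given in the study's reporting form, so the reading is an assumption and tags below mean score steps. On it the Vmn2r100 and Vmn2r1 peaks stood on 29 and 28 tags. The lowest peak of any kind stood on 25, 17 and 17 tags in the P5 pooled list and replicates 2 and 3, and on 22, 12 and 17 tags in the P3 pooled list and replicates 4 and 5, so that P3 replicate 4 had the lowest limit of the 4 libraries.

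The peaks near Vmn2r115 are shown because narrow peaks of both ages had their centres within 1 kb of each other there, each annotated to an Lx7 LINE 13.2 to 14.1 kb before the gene on chromosome 17.
Vmn2r115, P5 replicate 3, chr17:23330324-23330494: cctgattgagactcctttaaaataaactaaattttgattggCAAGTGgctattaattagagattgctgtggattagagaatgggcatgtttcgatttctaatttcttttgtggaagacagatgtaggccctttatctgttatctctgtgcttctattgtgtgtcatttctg
Vmn2r115, P3 pooled, chr17:23329810-23329974: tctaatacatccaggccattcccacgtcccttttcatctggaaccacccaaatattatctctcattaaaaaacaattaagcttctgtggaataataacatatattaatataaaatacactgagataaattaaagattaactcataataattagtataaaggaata
Vmn2r115, P3 pooled, chr17:23330674-23330838: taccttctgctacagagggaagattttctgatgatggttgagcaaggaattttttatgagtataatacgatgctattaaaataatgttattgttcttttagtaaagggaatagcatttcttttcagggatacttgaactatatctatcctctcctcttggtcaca
They scored 3.66 in P5 replicate 3 and 2.56 and 3.14 in the P3 pooled list, of which 3.14 was the highest score of a receptor peak there. The P5 peak lay between the 2 P3 peaks and overlapped neither.

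Next come the 4 P3 pooled receptor peaks that a narrow list of a P3 library held as well, with replicate 4 for the first 3 and with replicate 5 for Vmn1r41.
Vmn2r68, P3 pooled, chr7:85236815-85236979: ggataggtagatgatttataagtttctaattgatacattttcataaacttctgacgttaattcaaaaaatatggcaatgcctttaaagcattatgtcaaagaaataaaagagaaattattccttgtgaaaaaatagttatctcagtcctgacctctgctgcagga
Vmn2r97, P3 pooled, chr17:18780030-18780194: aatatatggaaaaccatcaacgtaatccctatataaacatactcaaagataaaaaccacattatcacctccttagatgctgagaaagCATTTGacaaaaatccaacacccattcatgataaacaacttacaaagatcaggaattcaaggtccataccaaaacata
Vmn1r82, P3 pooled, chr7:12282805-12282969: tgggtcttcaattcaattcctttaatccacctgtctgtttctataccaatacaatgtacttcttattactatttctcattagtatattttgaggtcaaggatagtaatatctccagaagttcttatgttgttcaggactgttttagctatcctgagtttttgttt
Vmn1r41, P3 pooled, chr6:89738832-89738996: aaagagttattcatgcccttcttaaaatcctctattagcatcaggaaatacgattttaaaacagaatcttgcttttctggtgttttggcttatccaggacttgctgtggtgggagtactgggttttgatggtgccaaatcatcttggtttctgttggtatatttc
Vmn2r68 had its peak in intron 1, 807 bases past the TSS, with scores of 2.48 pooled and 3.26 in replicate 4. The Vmn2r97 peak, 134.2 kb before the TSS in an L1_Mus2 LINE, had scores of 2.48 and 3.44. Vmn1r82 scored 2.48 and 2.90 in an L1_Mur2 LINE 21.9 kb upstream, and Vmn1r41 scored 2.81 pooled and 3.80 in replicate 5 in an L1Md_T LINE 1974 bases upstream. Of these 4, Vmn2r97 alone held an E-box (CATTTG), and 3 lay in LINEs.

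The last set gives a high-scoring intronic peak of the P3 pooled list (Vmn2r109), the highest-scoring narrow receptor peak of any list (Vmn1r55), the peak of Vmn2r78 close to its start site, and the narrow peaks of P3 replicate 4 in a promoter (Vmn2r66) and in a coding exon (Vmn1r199).
Vmn2r109, P3 pooled, chr17:20553630-20553794: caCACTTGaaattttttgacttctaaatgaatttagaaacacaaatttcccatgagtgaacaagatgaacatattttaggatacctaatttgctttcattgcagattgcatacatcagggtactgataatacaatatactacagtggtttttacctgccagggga
Vmn1r55, P3 replicate 4, chr7:5142099-5142243: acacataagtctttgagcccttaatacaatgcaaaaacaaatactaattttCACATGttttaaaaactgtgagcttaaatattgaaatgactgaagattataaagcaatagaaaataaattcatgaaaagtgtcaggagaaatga
Vmn2r78, P3 pooled, chr7:86916827-86916991: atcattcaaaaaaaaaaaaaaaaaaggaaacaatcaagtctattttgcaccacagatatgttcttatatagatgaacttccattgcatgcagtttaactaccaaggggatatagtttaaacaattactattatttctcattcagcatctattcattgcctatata
Vmn2r66, P3 replicate 4, chr7:85012190-85012334: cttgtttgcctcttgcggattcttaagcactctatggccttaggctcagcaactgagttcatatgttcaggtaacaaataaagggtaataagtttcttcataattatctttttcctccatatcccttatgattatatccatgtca
Vmn1r199, P3 replicate 4, chr13:22383079-22383223: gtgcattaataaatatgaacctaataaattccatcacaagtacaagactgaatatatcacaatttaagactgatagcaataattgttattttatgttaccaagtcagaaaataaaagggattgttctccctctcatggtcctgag
Vmn2r109 scored 3.06 in its intron 3, 11 kb past the TSS, and Vmn1r55 scored 5.08 in intergenic DNA 5.25 kb past its TSS, each with 1 E-box (CACTTG and CACATG). Vmn2r78 scored 2.48 in intron 1, 1560 bases past the TSS, in an Lx8b LINE. Vmn2r66 scored 3.81 at 242 bases before its TSS, and Vmn1r199 scored 3.81 at 613 bases past its TSS, inside its only exon. None of the last 3 held an E-box, and none was called as a narrow peak in another list.

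The first comparison asks how much of each list fell to the receptor genes at the 2 ages. In the pooled narrow lists, 2 of 486 peaks at P5 (0.412%, 95% Clopper-Pearson interval 0.0499 to 1.48) and 47 of 3625 peaks at P3 (1.30%, 0.954 to 1.72) were receptor peaks. By library the share was 2 of 200 peaks (1.0%) and 5 of 1336 (0.374%) in P5 replicates 2 and 3, and 49 of 9543 (0.513%) and 5 of 944 (0.530%) in P3 replicates 4 and 5. The P5 libraries lay on both sides of the P3 libraries, and the mean difference, P5 minus P3, was 0.166 percentage points (exact permutation test over the 4 libraries, two-sided, p = 1.0). With 2 libraries against 2 that test cannot go below 0.333. Neither P3 library alone came near the share of the P3 pooled list, whose interval lies above the values of both. Intervals cover counting error only, and p-values measure the spread between libraries whose independence the labels do not state.

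**Figure D1:**
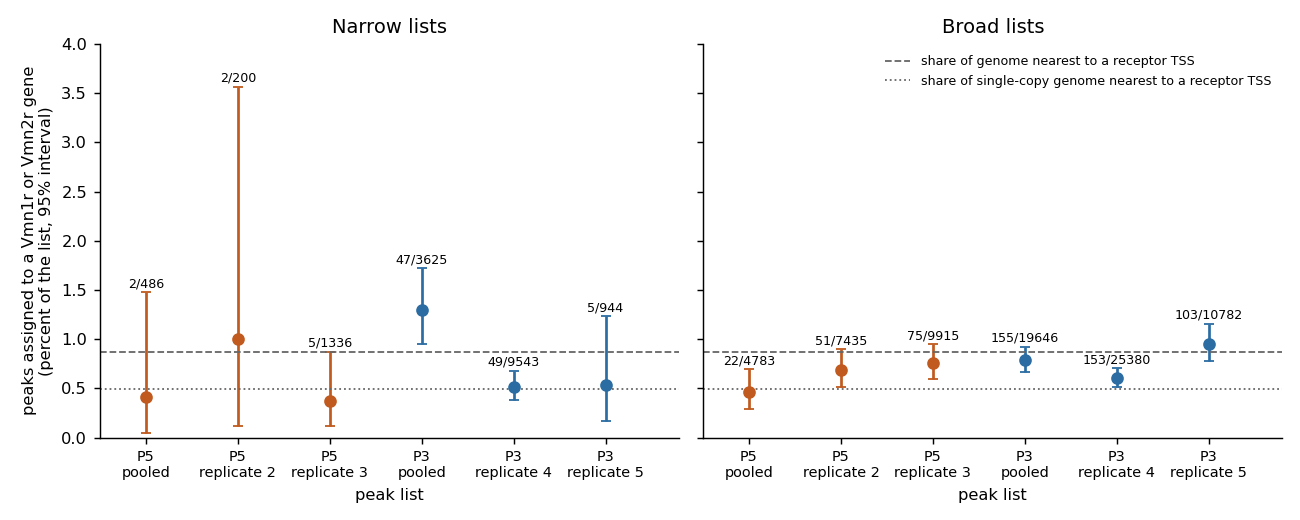
Percent of the peaks in each list whose nearest TSS was a Vmn1r or Vmn2r gene, with 95% Clopper-Pearson intervals and counts, for P5 (orange) and P3 (blue) lists. Only the P3 pooled narrow list, at 1.30%, has its interval above the dashed line at 0.869%, the share of the genome closest to a receptor TSS. The dotted line, at 0.492%, is that share of single-copy sequence.

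The broad lists gave another order. Receptor peaks made up 22 of 4783 peaks (0.460%) in the P5 pooled list and 155 of 19646 (0.789%) in the P3 pooled list. By library they were 51 of 7435 (0.686%) and 75 of 9915 (0.756%) at P5, and 153 of 25380 (0.603%) and 103 of 10782 (0.955%) at P3. Here both P5 libraries lay between the 2 P3 libraries, and the mean difference, P5 minus P3, was -0.0579 percentage points (exact permutation test, p = 1.0). P3 replicate 4 had the longest lists and, with 49 narrow and 153 broad receptor peaks, the most of any library, but not the highest share.

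For scale, 23.0 Mb of the reference, or 0.869% of its known bases, lay closer to a receptor TSS than to any other curated RefSeq TSS. Receptor peaks were found there at 0.473 times the density of all peaks in the P5 pooled narrow list and at 1.49 times in the P3 pooled narrow list, with 1.15 and 0.431 times in P5 replicates 2 and 3 and 0.591 and 0.609 times in P3 replicates 4 and 5. In the broad lists the ratio was 0.529, 0.789 and 0.870 in the P5 pooled list and replicates 2 and 3, and 0.908, 0.693 and 1.10 in the P3 pooled list and replicates 4 and 5. By length, then, receptor arrays held fewer peaks than the genome at large in 9 of these 12 lists.

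Much of that DNA is not single copy. On a regular grid of positions, 45.6% of the 31-base words in the receptor regions occurred once in the genome, against 80.6% of words across the genome, and 56.9% of their bases against 36.4% were masked as repeats. Set against single-copy sequence, receptor density was 0.836 times that of all peaks in the P5 pooled narrow list and 2.64 times in the P3 pooled narrow list, with 2.03 and 0.761 times in P5 replicates 2 and 3 and 1.04 and 1.08 times in P3 replicates 4 and 5. The broad lists then gave 0.935, 1.39 and 1.54 times (P5 pooled, replicates 2 and 3) and 1.60, 1.23 and 1.94 times (P3 pooled, replicates 4 and 5). Against single-copy sequence 5 of the 6 broad lists were above 1, where against all sequence 1 was. How the authors treated reads with several equal matches is not given in the sources used here, and its part in these densities was not tested.

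Member genes were next counted by family against 350 curated receptor genes (228 Vmn1r and 122 Vmn2r) on the reference chromosomes, matched by gene identifier, of which 179 had no peak in any list (2 names in the lists have no curated place). In the narrow lists at P5, 2 of the 350 (0.571%) had a pooled peak, beside 1.74% of all 26180 curated genes, and 2 (0.571%) and 5 (1.43%) in replicates 2 and 3, beside 0.745% and 4.37%. At P3, 42 (12%) had a pooled narrow peak, beside 9.86% of all genes, and 43 (12.3%) and 5 (1.43%) in replicates 4 and 5, beside 20.3% and 3.17%. Only in the P3 pooled list was the receptor share above that of all genes, and it was not so in either P3 library. Gene counts depend on the length of DNA each gene can collect peaks from, which was a median of 84.8 kb for Vmn2r and 35.4 kb for Vmn1r genes.

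In the broad lists 21 of the 350 genes (6.0%) had a peak in the P5 pooled list, beside 9.53% of all genes, and 38 (10.9%) and 61 (17.4%) in replicates 2 and 3, beside 13.5% and 16.7%. At P3 these were 99 (28.3%) pooled, beside 22.9%, and 88 (25.1%) and 72 (20.6%) in replicates 4 and 5, beside 29.8% and 16.4%. The families parted in every broad list. Vmn2r genes had a broad peak in 14.8% (P5 pooled) and 52.5% (P3 pooled) of cases, and Vmn1r genes in 1.32% and 15.4%, so that Vmn2r genes stood above all genes in both pooled lists and Vmn1r genes below.

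**Figure D2:**
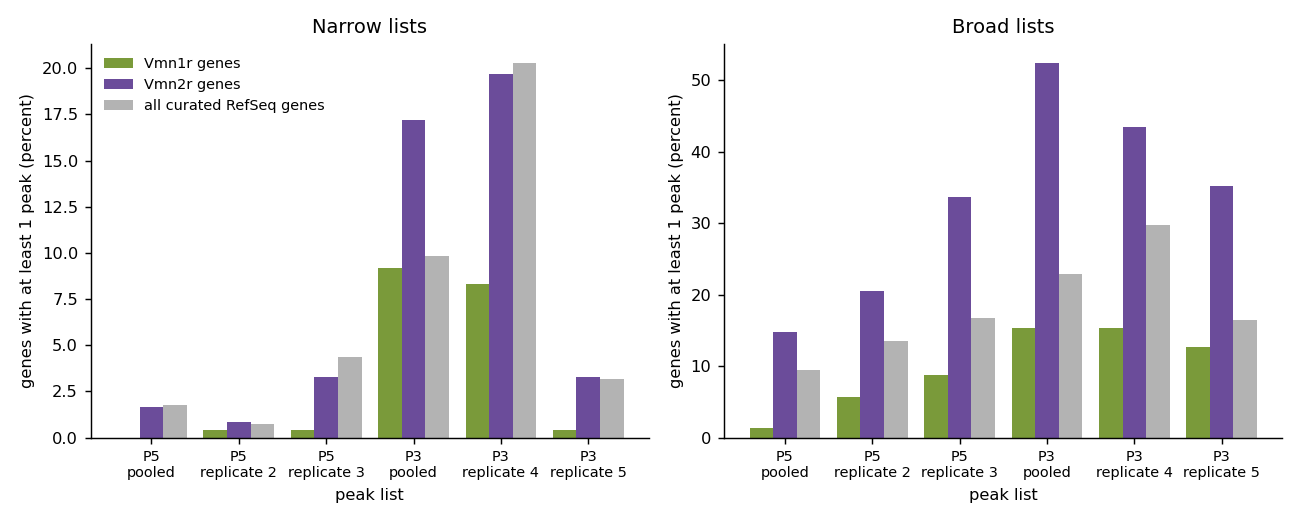
Percent of Vmn1r genes (green), Vmn2r genes (purple) and all curated RefSeq genes (grey) with at least 1 narrow (left) or broad (right) peak in each list. In the broad lists the purple bar, 52.5% in the P3 pooled list, stands above grey and the green bar below grey in every list.

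The difference between the families was smaller per base. Sequence closest to Vmn2r genes, 13.1 Mb, held broad peaks at 0.806 times the density of all peaks in the P5 pooled list and 1.18 times in the P3 pooled list, and that of Vmn1r genes, 9.97 Mb, at 0.167 and 0.554 times, the first of these over 3 peaks. By library the Vmn2r ratio was 0.955 and 1.10 in P5 replicates 2 and 3 and 0.855 and 1.22 in P3 replicates 4 and 5, and the Vmn1r ratio 0.572 and 0.562 at P5 and 0.481 and 0.936 at P3, lower than that of Vmn2r in each list. In the pooled narrow list of P3 the 2 families were close, with 26 Vmn2r peaks at 1.46 times and 21 Vmn1r peaks at 1.54 times. The P5 pooled narrow list had 2 Vmn2r peaks and no Vmn1r peak.

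By position the 350 genes fell into 27 clusters, with neighbours within 1 Mb, of which 21 had a narrow and 25 a broad receptor peak. Without P3 replicate 4 and the pooled list it entered, 8 clusters had a narrow peak. The cluster on chromosome 17 from Vmn2r90 to Vmn1r237 (chr17:17703941-21314886, 36 genes of both families) held the most, with 19 narrow and 150 broad peaks over the lists and a broad peak at 30 of its genes. Next was the Vmn2r65 to Vmn2r79 cluster (chr7:84940169-87037968, 15 genes), with 12 narrow and 96 broad peaks and a broad peak at 14 of its 15 genes. The mixed cluster from Vmn2r29 to Vmn1r89 (chr7:7212996-13220289, 52 genes) had 16 narrow and 54 broad peaks. All 3 had broad peaks at both ages, 5, 5 and 1 of them in the P5 pooled list and 35, 31 and 14 in the P3 pooled list.

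The array with the most genes held few peaks. The Vmn1r91 to Vmn1r183 cluster (chr7:20101158-24055691) has 86 Vmn1r genes, of which 4 had a narrow and 8 a broad peak. It held 5 narrow and 13 broad peaks, all in P3 lists. Over all clusters the P5 pooled list and replicates 2 and 3 held 2, 2 and 5 of the 110 narrow receptor peaks. Of the 559 broad ones they held 22, 51 and 75. The broad peaks of the Vmn1r91 to Vmn1r183 cluster came to 4.005 per Mb over the 6 lists, against 58.0 per Mb in the Vmn2r65 to Vmn2r79 cluster. Only 11.6% of its 31-base words were single copy, against 71.0% in that cluster and 70.7% in the Vmn2r90 to Vmn1r237 cluster, and per Mb of single-copy sequence its density was 34.5, against 81.8 and 68.9. The 5 narrow peaks belonged to Vmn1r170, Vmn1r171 (2 peaks), Vmn1r174 and Vmn1r180. Vmn1r170 and Vmn1r171 had their P3 pooled peaks 2.83 and 2.79 kb before the TSS, with scores of 2.23 and 2.32.

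Across the 19 clusters of more than 1 gene, broad peak counts went with single-copy length (Pearson r = 0.946, Spearman rho = 0.937) more than with total length (0.608 and 0.806) or number of genes (0.292 and 0.649). Narrow counts gave 0.942 and 0.834 with single-copy length, and 0.800 and 0.856 with total length. By rank, narrow counts thus went slightly more with total length. These are descriptions over clusters that share the same libraries and differ in repeat content, and counts and lengths both scale with cluster size.

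**Figure D3:**
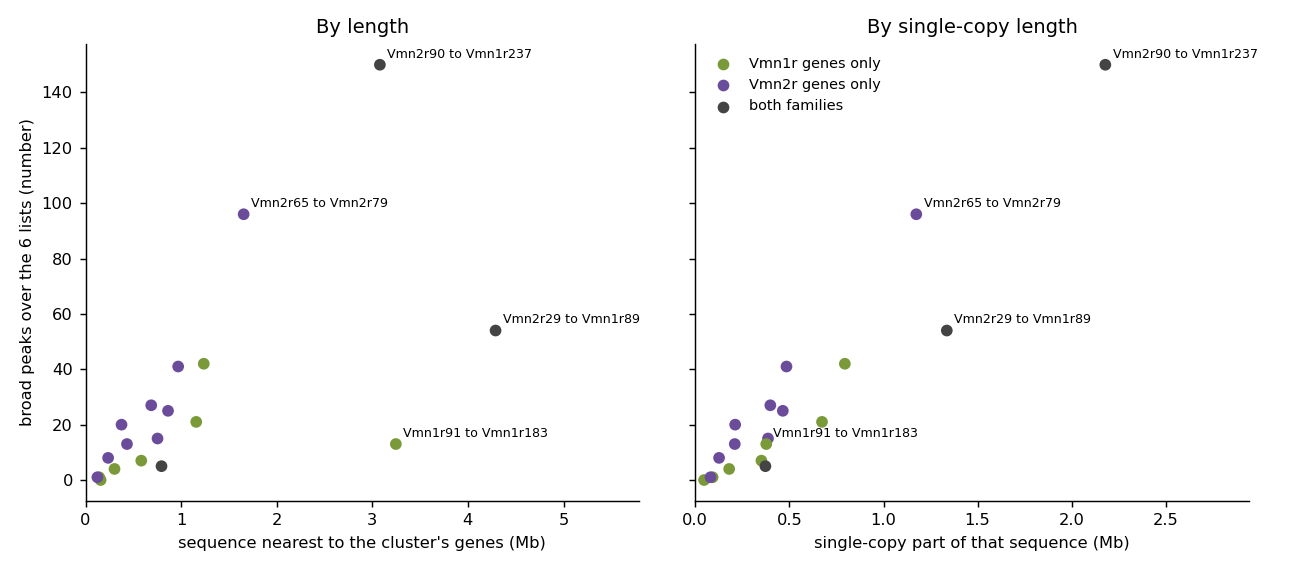
Broad receptor peaks summed over the 6 lists for the 19 clusters of more than 1 gene, against the length of sequence closest to their genes (left, Mb) and its single-copy part (right, Mb). The Vmn1r91 to Vmn1r183 cluster, with 13 peaks, lies far right and low on the left panel and among the small clusters on the right one.

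Whether a place was found again in another library is the only replicate check that peak lists allow. The 4 narrow library lists held 61 receptor peaks at 61 separate places, so that none was shared by libraries of the same or the other age. Over all peaks 29 of 11991 places (0.242%) were shared, which is also few. At the level of genes, 5 had narrow peaks in 2 libraries (Vmn2r97, Vmn2r24, Vmn2r52, Vmn2r112 and Vmn1r238), each time at different places, and none in 3. The same gene count was not made over all genes. Of the 2 P5 pooled narrow receptor peaks, 0 overlapped a narrow peak of a P5 library, beside 24.7% of all P5 pooled peaks. Of the 47 at P3, 4 did (8.51%), beside 27.4% of all P3 pooled peaks. Against the broad lists of the P3 libraries the shares were 11 of 47 (23.4%) and 27.3%.

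Vmn2r24 had narrow peaks in its own introns at both ages, at places that did not overlap, 26.5 kb past the TSS in P5 replicate 3 (score 3.81) and 24.9 kb past it in P3 replicate 5 (score 3.80). The Vmn2r97 peak of P5 replicate 2 (score 3.55, 147.4 kb before the TSS) did not overlap the one in P3 replicate 4 (134.2 kb before it). Neither of the 2 receptor peaks of the P5 pooled narrow list overlapped a P3 pooled narrow peak, beside 8 of all 486 (1.65%). Other high-scoring narrow peaks lay at places called narrow in 1 library only: Vmn2r99 in P5 replicate 3 (3.37, in its intron 5), Vmn1r27 (4.89) and Vmn2r102 (4.71) in P3 replicate 4, and Vmn2r101 in P3 replicate 5 (3.96, in its intron 5). The Vmn2r99 peak lay within a broad peak of its own library (5.27), and the Vmn2r101 peak within broad peaks of the P3 pooled list (5.63) and of its own library (8.07). No broad receptor peak of any list overlapped those of Vmn1r27 and Vmn2r102.

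Broad peaks recurred a little more often. Of 365 places with a broad receptor peak in a library, 17 (4.66%) were called in 2 libraries and none in 3 or 4, beside 3.62% of all broad places in 2 or more. Shared places joined P5 and P3 libraries in 13 cases and the P3 libraries with each other in 4, but more pairs of libraries lie across the ages. Of the receptor peaks of P5 replicate 2, 1.96% and 7.84% overlapped P3 replicates 4 and 5, beside 5.07% and 2.99% of all its peaks. For P5 replicate 3 these were 10.7% and 0.0%, beside 4.48% and 2.40%. For P3 replicate 4 with replicate 5 they were 2.61% beside 2.13%. No place joined the P5 libraries, whose lists shared little in all. Of the 7435 broad peaks of P5 replicate 2, 175 (2.35%) overlapped one of replicate 3, beside 0 of its 51 receptor peaks. Of the 17, 2 were at promoters: the Vmn1r37 place scored 5.13 in P5 replicate 3 and 6.34 in P3 replicate 4, and the Vmn1r77 place scored 4.25 in P5 replicate 3 and 4.89 in P3 replicate 4. Vmn2r75, with 2 shared places, scored 4.36 in P5 replicate 2 and 7.91 in P3 replicate 5 at the first, and 4.25 in P5 replicate 3 and 6.53 in P3 replicate 4 at the second. Scores are scaled to each library and were not tested between libraries.

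By gene, 11 had a broad peak in all 4 libraries: Vmn2r17, Vmn2r26, Vmn2r69, Vmn2r72, Vmn2r75, Vmn2r80, Vmn2r94, Vmn2r95, Vmn2r98 and Vmn2r104, and of the other family Vmn1r30. They were named after their counts were seen, and the same count was not made over all genes. Single broad lists called 13.5% and 16.7% of all curated genes in P5 replicates 2 and 3, and 29.8% and 16.4% in P3 replicates 4 and 5. A median of 141.7 kb of sequence lay closest to the 11 genes, against 39.6 kb for receptor genes with a broad peak in no library. Within Vmn2r alone the medians were 142.1 kb (10 genes) and 72.1 kb (48 genes). Genes that collected peaks in more libraries thus also had more DNA to collect them from. Vmn2r26 had the most broad peaks over the 6 lists, 16.

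Vmn2r68 had the highest-scoring and widest broad receptor peak of the P3 pooled list (score 7.03, 894 bases, chr7:85236338-85237232), over the narrow peak of its intron 1, and P3 replicate 4 had a broad peak there as well (5.98). P3 replicate 5 and the P5 lists had none at that place. The highest score in the P5 pooled list, 5.37, belonged to a 500-base peak 122.8 kb past the TSS of Vmn1r238, which P5 replicate 3 also held (5.71). In single libraries the highest broad scores were 9.23 for Vmn2r102 in P5 replicate 3, a peak of 1140 bases in intron 1, in an AT-rich stretch 3.51 kb past the TSS, and 10.9 for Vmn2r94 in P3 replicate 4, 6.84 kb before the TSS. All were below the highest score of their lists, which was 9.37 in the P5 pooled list, 16.6 in the P3 pooled list, 13.2 in P5 replicate 3 and 18.5 in P3 replicate 4.

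Scores were set beside those of the whole lists. The median score of narrow receptor peaks was 2.19 in the P5 pooled list, beside 2.23 for all peaks, and 2.48 in the P3 pooled list, beside 2.56. By library it was 3.55 and 3.37 in P5 replicates 2 and 3, beside 3.55 and 3.22, and 3.63 and 3.80 in P3 replicates 4 and 5, beside 3.63 and 3.35. In the pooled broad lists it was 4.03 beside 4.07 at P5 and 4.14 beside 4.22 at P3, and in the library broad lists 4.68 and 4.54 at P5, beside 4.68 and 4.69, and 5.62 and 4.87 at P3, beside the same 2 values. Receptor medians thus lay below, at or above those of all peaks according to the list. The highest narrow receptor scores, 2.23 at P5 and 3.14 at P3, were far below the highest of all peaks in the pooled lists, 6.53 and 7.28.

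The distance to the TSS is bounded by the spacing of the genes in an array. In the pooled lists, narrow receptor peaks lay a median of 21.7 kb from the TSS at P5 and 20.3 kb at P3, beside 71.2 and 75.3 kb for all peaks, and broad ones 27.0 kb at P5 and 16.2 kb at P3, beside 128.3 and 125.2 kb. In the P3 pooled narrow list 11 of 47 (23.4%) lay within 10 kb, beside 13.6% of all peaks. Those 11 were the peaks of Vmn1r41, Vmn1r87, Vmn1r170, Vmn1r171, Vmn1r184, Vmn2r10, Vmn2r55, Vmn2r61, Vmn2r68, Vmn2r78 and Vmn2r117. Vmn2r55 and Vmn1r87 had scores of 2.48 and 2.40 at 7.58 and 7.31 kb before the TSS. Vmn1r184 had a score of 2.73 at 2.67 kb past its TSS, Vmn2r10 and Vmn2r61 had scores of 2.40 each in their own introns, and Vmn2r117 had 2.15 in its intron 4.

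**Figure D4:**
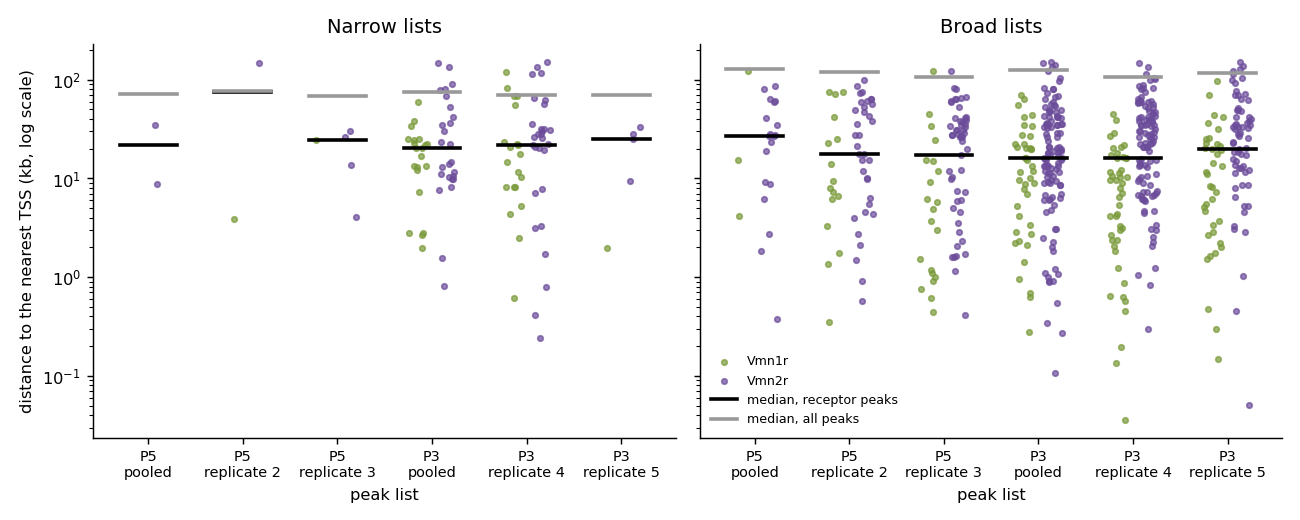
Distance in kb (log scale) of each receptor peak to its TSS in the narrow (left) and broad (right) lists, Vmn1r in green and Vmn2r in purple, with the medians of receptor peaks (black) and of all peaks (grey). Black lines sit below grey ones in every list, though in the narrow list of P5 replicate 2 75.7 and 76.3 kb nearly coincide over 2 peaks.

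Of the 110 narrow peaks 24 overlapped the body of the gene they were assigned to (23 of 66 for Vmn2r, whose genes span a median of 24.6 kb, and 1 of 44 for Vmn1r, whose genes span a median of 0.923 kb), 6 overlapped an annotated vomeronasal receptor pseudogene and 75 overlapped no annotated gene. Of the 559 broad peaks 164 overlapped the body of their own gene, 152 of them at Vmn2r genes and 12 at Vmn1r genes. The narrow peak of Vmn2r101 in the P3 pooled list lay in exon 2 (score 2.40), and P3 replicate 5 had a broad peak there (4.26). The P3 pooled peak of Vmn2r53 (score 2.90) lay in the body of the neighbouring gene Vmn2r54. Among the 559 broad peaks, 26 were annotated to a promoter, 18 of them of 14 Vmn1r genes and 8 of 6 Vmn2r genes. A place called in several lists counts each time, such as the Vmn1r77 promoter. Promoter and gene-body shares were not counted over all peaks. Shares in an intron of any gene were 40.91% beside 34.1% of all peaks (P5 pooled broad) and 32.9% beside 33.82% (P3 pooled broad). In the broad library lists they were 19.42% to 28.0%, beside 33.29% to 35.29%. In the narrow P3 pooled list and replicate 4 they were 17.02% and 20.41%, beside 29.32% and 38.12%. At Vmn2r66 the broad promoter peak was in the P3 pooled list (4.14) and in P3 replicate 4 (8.52), over the narrow peak shown above, whereas the broad peaks of Vmn2r66 in the P5 pooled list lay in intron 3 (3.92) and in intergenic DNA (3.53).

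Repeat annotations of receptor peaks were set beside those of their lists. In the P3 pooled narrow list 23 of 47 receptor peaks (48.9%) were annotated to a LINE, beside 20.03% of all peaks. In P3 replicate 4 LINEs held 34.7%, beside 15.1%. The regions themselves are richer in repeats, as given above, and no test of the difference was made. Of the 47 P3 pooled peaks, 15 (31.9%) consisted wholly of 31-base words found once in the genome, beside 76.4% of all peaks, although in only 2 of the 47, those of Vmn1r12 and Vmn1r62, did most words have other copies. P3 replicate 4 had 23 of 49 (46.9%) wholly single-copy peaks, beside 84.3%. Most receptor peaks could thus be told from other places by part of their sequence, not by all of it.

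E-boxes were counted in the same peaks. One was in 2 of 2 narrow receptor peaks of the P5 pooled list, beside 31.7% of all peaks, and in 14 of 47 (29.8%, 95% Clopper-Pearson interval 17.3 to 44.9) at P3, beside 33.1%. P5 replicates 2 and 3 had it in 0 of 2 and 2 of 5, beside 38.5% and 36.6%, and P3 replicates 4 and 5 in 20 of 49 (40.8%) and 1 of 5, beside 29.1% and 34.9%. The canonical CACGTG was in no narrow receptor peak of any list, where 0.206% of all peaks in the P5 pooled list and 1.27% in the P3 pooled list held it. With shares this low, its presence in receptor peaks at the rate of the whole lists was not detectable at these numbers. The median GC content of receptor peaks had no common direction: it was 43.9% in the P5 pooled list, beside 38.1% for all peaks, 50.3% and 30.99% in P5 replicates 2 and 3, beside 37.6% and 39.2%, and 32.7%, 34.5% and 36.8% in the P3 pooled list and replicates 4 and 5, beside 35.8%, 37.2% and 35.7%.

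**Figure D5:**
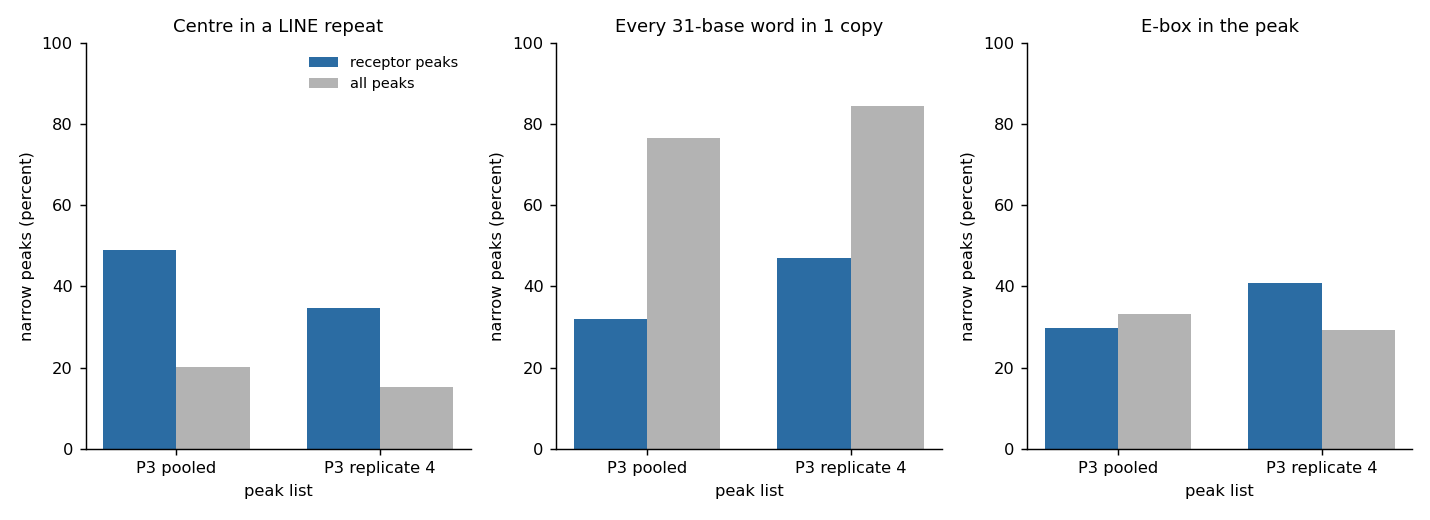
Percent of narrow receptor peaks (blue) and of all narrow peaks (grey) annotated to a LINE repeat (left), with every 31-base word in 1 genome copy (middle) and with an E-box (right), in the P3 lists with over 40 receptor peaks. LINE shares are 48.9% beside 20.03% and single-copy shares 31.9% beside 76.4% in the P3 pooled list, while E-box shares are 29.8% beside 33.1%.

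Promoters of the receptor genes were searched for the same motifs in 300-base windows around each start, in RefSeq sequence of GRCm38.p6. An E-box was in 76.9% of 117 Vmn2r promoters and 56.6% of 205 Vmn1r promoters, beside 40.4% of all 32851 promoters. Of 948 promoters of olfactory receptor genes (Olfr), 49.2% held it. Median GC was 38.0% for Vmn2r, 36.0% for Vmn1r and 35.0% for Olfr promoters, beside 52.7% for all, and its part in these shares was not tested. CACGTG was in 10 Vmn2r promoters (8.55%) and 1 Vmn1r promoter (0.488%), beside 7.15% of all. Of those 11 genes, Vmn2r61 and Vmn2r117 had a narrow peak, neither of them in the promoter. Vmn2r61, Vmn2r95 and Vmn2r117 had a broad peak. Vmn2r32, Vmn2r34, Vmn2r37, Vmn2r42, Vmn2r45, Vmn2r48 and Vmn2r49 lie in the Vmn2r29 to Vmn1r89 cluster and had no peak in any list. In that cluster 31.15% of 31-base words were single copy. A match is a stretch of letters and not a site of binding.

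Other genes of the vomeronasal organ were counted in the same lists. Of 33 with a curated RefSeq entry, 0 had a narrow peak in the P5 pooled list and 3 in the P3 pooled list (Omp, Fpr-rs3 and H2-M10.3), beside 1.74% and 9.86% of all curated genes, and 2 and 4 had a broad peak, beside 9.53% and 22.9%. By library a narrow peak was at 0 and 3 of the 33 in P5 replicates 2 and 3, beside 0.745% and 4.37%, and at 8 and 2 in P3 replicates 4 and 5, beside 20.3% and 3.17%. Omp encodes the olfactory marker protein of mature chemosensory neurons. Its P3 pooled peak, 9.005 kb past the TSS within an intron of another gene, scored 2.40. P3 replicate 4, which is part of that pool, had it too (4.17). H2-M10.3, of the class Ib genes of the major histocompatibility complex that basal vomeronasal neurons use, also had its peak in both the P3 pooled list (2.90) and P3 replicate 4 (4.71), 11 kb past the TSS. P3 replicate 5 had no narrow peak at Omp or H2-M10.3. Gnao1, the G protein of the V2R neurons and also a common neuronal gene, had a broad peak 16.1 kb before its TSS in the P5 pooled list (5.14) and P5 replicate 3 (7.03), and broad peaks at another place, 62.2 kb before the TSS, in the P3 pooled list (4.72) and P3 replicate 4 (6.16). P5 replicate 2 (4.52) and P3 replicate 5 (5.02) had their broad peaks 4.90 and 4.33 kb before the TSS. Adcy2 had a broad peak in every broad list. A narrow Adcy2 peak of P3 replicate 4 (3.26) and 1 of P3 replicate 5 (3.20) overlapped, 6.91 and 7.06 kb past the TSS. Of the 33 genes, 18 had a peak in some list, and Trpc2 and Gnai2 had none in any. The share of all curated genes with a peak in some list was not counted, so that neither statement has a background.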

How the data were processed

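The submitters' processing notes and the study's methods name Trim Galore, Bowtie, MACS2 and the mouse build GRCm38 (mm10). The authors deposited annotated peak lists with a score for each peak, its distance to the nearest TSS and that gene's name, called narrow or broad, for each library and for both libraries of an age pooled. What the score counts is stated in none of these sources. The lists labelled as control, which hold all 4 Bmal1 libraries pooled, were not used. Members and gene lists were chosen with earlier results of these data known. Peaks were assigned by the deposited gene name, and curated RefSeq genes of GRCm38.p6 gave clusters, the sequence nearest to each TSS, peak sequences and copies of 31-base words (Python 3.11.15, numba 0.67.0, scipy 1.17.1). Shares have 95% Clopper-Pearson intervals, and ages were compared by the exact permutation test over 4 libraries. Genes were named by rule: the 3 highest-scoring receptor peaks of each narrow list, narrow peaks in both pooled lists, in 3 libraries or overlapping between lists, pooled narrow peaks within 10 kb of the TSS or in an exon or promoter, the highest and widest peak of each pooled broad list, and Vmn2r78. Other genes were named after their values were seen. Overlap meant at least 1 shared base. Alternatives were higher scores, single libraries, the nearest RefSeq TSS, a distance limit, and other cluster gaps, overlaps, motifs and word lengths. The code was tested on simulated data.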

Additional observations from a re-analysis of the deposited data

How the results depend on the processing

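The share of P3 pooled narrow peaks at receptor genes, 1.30%, depended on the settings: it was 0.716% in the upper 50% of the scores, 0.789% with broad calls, and 0.513% to 0.530% when 1 P3 library replaced the pool. For P5 pooled narrow peaks the single libraries gave 0.374% to 1.0%. For broad calls they gave 0.686% to 0.756% at P5 and 0.603% to 0.955% at P3, and the upper 50% of P3 scores gave 0.636%. The mean difference in narrow share between libraries, P5 minus P3, of 0.166 percentage points changed sign with broad calls (-0.0579) and ranged between -0.147 and 0.478 with 1 library left out, the lowest being without P5 replicate 2. Leaving out libraries here and for the clusters was added once the data had been seen. The number of clusters with a narrow peak, 21, was 8 without P3 replicate 4 and 19 to 21 without another library. Of the P3 pooled narrow receptor peaks, 2.13% to 6.38% were found in the one P3 library kept, 1 library being fewer places to match. With CACGTG alone the share with an E-box was 0.0% at both ages, and single P5 libraries gave 0.0% to 40%. With 51-base words no P3 pooled receptor peak had most of its words in several copies (0.0%). The median distance of narrow receptor peaks was 24.6 to 75.7 kb in single P5 libraries and 21.9 to 24.9 kb in single P3 libraries. The other 39 of 57 alternative values were counted as unchanged, by rules that differed between results. Shares had to stay in their interval, and distances within the spread between libraries. For the age difference only the sign had to hold, and cluster counts had to stay within a set factor. The age difference thus counted as unchanged at 0.484 percentage points in the upper 50% of the scores. The cause of each change was not tested. No paired analysis was possible because the ages share no replicate number. The P5 lists and P3 replicate 5 held 2 to 5 narrow receptor peaks each, and this small number limits every statement on them.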

Other observations

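Olfactory receptor genes (Olfr), the most similar tandem receptor family and of the same kind of array, had 698 genes with a peak in any list. Their narrow peaks were 15 of the P5 pooled list (3.09%) and 78 of the P3 pooled list (2.15%), 2.63 and 1.83 times the density of all peaks over the 31.1 Mb closest to them. The broad ratios were 1.73 at P5 and 1.82 at P3, against 0.529 and 0.908 for vomeronasal receptors. Narrow Olfr ratios were 1.403, 0.9996 and 1.624 in P5 replicate 3 and P3 replicates 4 and 5, against 0.4305, 0.5906 and 0.6092. Set against single-copy sequence, the pooled broad Olfr ratios were 1.962 at P5 and 2.064 at P3, against 0.9348 and 1.603. The pooled narrow ones were then 2.986 and 2.082, against 0.8364 and 2.635. In the P3 pooled narrow list the order of the families thus turned around, but in neither of its libraries. There the single-copy Olfr ratios were 1.136 and 1.845 (replicates 4 and 5), against 1.044 and 1.076. In the Olfr regions 70.9% of 31-base words were single copy, against 45.6% in the vomeronasal receptor regions. P5 replicate 2 had 0 narrow Olfr peaks among its 200 peaks and 2 vomeronasal receptor peaks. The difference between the families was not tested.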
